A study of Mus musculus with 6 samples.

Results

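A group of 10 genes that set the pace of the G1 phase of the cell cycle was followed across RNA sequencing libraries of 4T1 cells, a mouse mammary carcinoma line. They were chosen by name: the D-type cyclins Ccnd1, Ccnd2 and Ccnd3, their kinases Cdk4 and Cdk6, the kinase inhibitors Cdkn1a and Cdkn1b, the growth arrest genes Gadd45a and Gadd45b, and the transcription factor gene Myc. All 10 of the 10 symbols were found among the 11452 genes of the deposited matrix, and all 10 passed the filter on low values. The set was put together with the difference between library numbers, described next, already in view. That difference is therefore given for these genes as a description without a test.

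The study compared pools of 4T1 cells labelled Myosin 1e KO or Myosin 1e WT, meaning knockout or wild type for Myo1e, the gene of a class I myosin motor. Each genotype had 3 libraries, called biological replicates by the submitters, and no treatment is given for either. The sources used here do not say how the knockout was made or how many clones a pool began from. The matrix columns are numbered 1, 2 and 4 in each genotype. Numbers 1 and 2 were matched to the pools of those numbers. The labels number the pools 1 to 3 in each genotype, and no column is numbered 3. For the number 4 only the genotype could be matched, and the sources used here do not say what sets it apart. Values are log2 CPM, the log2 of reads scaled to a common library total, with a small prior, so a step of 1 is a doubling.

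D-type cyclins are made in response to growth signals and activate Cdk4 and Cdk6, which phosphorylate the retinoblastoma protein and free E2F factors to switch on S phase genes. Cyclin E with Cdk2 completes that step, and Cdkn1a (the protein p21) and Cdkn1b (p27) restrain it. Myc drives growth and opposes some of these inhibitors. Gadd45 proteins bind Cdk1, PCNA and the kinase Map3k4 and are induced by DNA damage, amino acid shortage and other stresses. Cdkn1a and Gadd45a are textbook targets of p53, and 4T1 is generally described as a line without functional p53.

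Whole reads recovered from the values numbered 17772003 to 19988206 per library, and the lowest member value was 163 reads, for Gadd45a in KO 2. The targeted gene Myo1e was at 6.81 to 6.87 log2 CPM in the KO libraries and at 6.91 to 7.09 in the WT libraries, so the transcript was present in all 6, which leaves the state of the edited locus and of the protein unmeasured. Both libraries numbered 4 lay above all 4 others for 35.8% of the 11269 genes tested and below all 4 others for 37%. The 7 mitochondrial genes measured, of 13 listed, held a share of reads that was 0.343% for KO 4, 0.309% for WT 4 and 0.379% to 0.493% for the rest. Of the marker lists, 11 of 12 epithelial genes were measured, and their summed level was 3924 and 4209 CPM in KO 4 and WT 4 and 4667 to 5423 CPM in the others. By gene this list was split. Both libraries numbered 4 were above all others for 5 of the 11 epithelial genes and below for 4. Only 2 of 12 fibroblast markers were measured (29.9 to 76.8 CPM summed), 2 of 8 endothelial markers (39 to 69.3 CPM) and 1 of 12 leukocyte markers, Cd74, at 55.2 and 66.1 CPM in KO 4 and WT 4 and 5.49 to 27.4 CPM in the others. Ptprc, Col1a1 and Pecam1, which define those cell types, were not among the measured genes. Their part in the results was not tested.

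Gadd45a was the member that differed most between libraries of one genotype, and it was higher in both libraries numbered 4 (GRCm38 chromosome 6, 67035096 to 67037457, minus strand). Its level was 3.48, 3.24 and 7.60 log2 CPM in KO (numbers 1, 2, 4) and 4.09, 4.14 and 7.73 in WT. In reads these were 215, 163 and 4043 in KO and 329, 326 and 3960 in WT. Against the mean of numbers 1 and 2, number 4 was 18.9-fold higher in KO (a log2 difference of 4.24) and 12.2-fold higher in WT (3.61). Numbers 1 and 2 differed from each other by only -0.23 in KO and 0.04 in WT. Averaged over the genotypes, this contrast ranked 9 from the top among the 11269 genes tested.

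Its paralogue Gadd45b, which shares the Map3k4 and PCNA interactions and is best known as a gene induced by NF-kappaB and TGF-beta, did not follow it (chromosome 10, 80930073 to 80932204, plus strand). Its level was 6.13, 6.15 and 6.04 log2 CPM in KO (numbers 1, 2, 4) and 6.89, 6.13 and 5.82 in WT. Both libraries numbered 4 were the lowest, but the contrast was only -0.10 in KO, and in WT its size of -0.69 was below the -0.75 that separated WT 2 from WT 1. The WT contrast was -0.31 without WT 1 and -1.06 without WT 2. Per kilobase of exon, Gadd45a made up 10.7% to 18.4% of the summed Gadd45a and Gadd45b level in the libraries numbered 1 and 2. In KO 4 and WT 4 it made up 72.7% and 77.1%. The third family member, Gadd45g, was at 3.58 and 3.49 log2 CPM in KO 4 and WT 4 and at 2.77 to 3.41 in the others, a contrast of 0.66 in KO and 0.25 in WT.

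Because the paralogues parted, the bases just upstream of each are shown, from RefSeq on GRCm38.p6, read on the gene's strand and ending at the base before the GENCODE gene start. The Gadd45a window covers chr6:67037458-67037657 on the minus strand and the Gadd45b window chr10:80929841-80930072 on the plus strand. Capitals mark the octamer ATTTGCAT, bound by POU factors such as Oct1, the CCAAT box, bound by NF-Y, and the E-box CACGTG, bound by Myc with Max, each on either strand.
Gadd45a: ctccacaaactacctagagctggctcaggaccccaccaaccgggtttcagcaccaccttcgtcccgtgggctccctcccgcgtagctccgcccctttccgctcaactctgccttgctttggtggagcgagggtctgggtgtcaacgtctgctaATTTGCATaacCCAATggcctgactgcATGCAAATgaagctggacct
Gadd45b: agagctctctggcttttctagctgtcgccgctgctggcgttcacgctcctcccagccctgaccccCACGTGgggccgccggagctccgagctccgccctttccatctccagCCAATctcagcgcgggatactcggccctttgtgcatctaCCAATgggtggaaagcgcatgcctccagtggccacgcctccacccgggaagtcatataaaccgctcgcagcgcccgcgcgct

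The Gadd45a window of 200 bases held 2 octamers, 1 on each strand, and 1 CCAAT box between them (at least 1 CCAAT box in 28.4% of windows). At least 1 octamer was present in 1.32% of 32851 upstream windows of that length, and at least 2 in 0.07%. Each of these windows took the first bases of its upstream entry and was not fitted to a GENCODE gene start. The Gadd45b window of 232 bases held no octamer, 2 CCAAT boxes and 1 E-box (5.41% of windows of that length). At least 1 CCAAT box was present in 32.4% of those windows and at least 2 in 9.13%. The letters TGACGTCA, TGANTCA, TGATGCAA, TTTCCCGC and TTTGGCGC, searched on both strands for CRE, AP-1, C/EBP-ATF and E2F sites, were in neither window. GGGCGG occurred once in each, without capitals (at least 1 in 24.6% and 30.1% of windows of the Gadd45a and Gadd45b lengths). TATAAA occurred once in the Gadd45b window, without capitals (11.9% of windows). The matches in capitals do not overlap one another. A match describes letters only, and no binding was measured. The promoter table matched 7 of the 10 members, with no entry for Ccnd1, Ccnd2 or Myc.

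**Figure D1:**
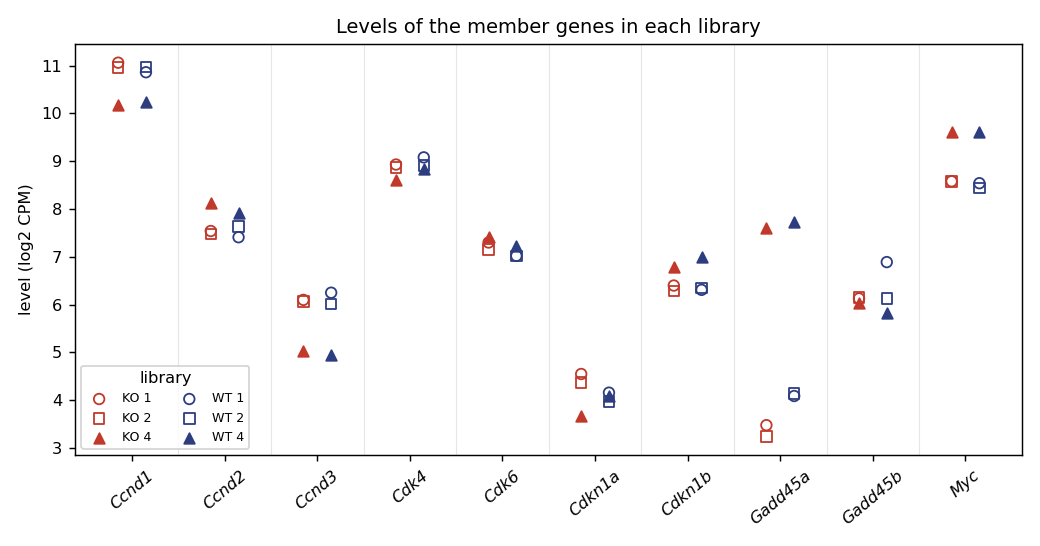
Level of each gene in log2 CPM on the vertical axis, 1 point per library, with KO in red on the left and WT in blue on the right of each gene. Circles are libraries numbered 1, squares 2 and filled triangles 4. The Gadd45a triangles lie at 7.60 and 7.73, far above its other points at 3.24 to 4.14.

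The D-type cyclins went separate ways. Ccnd1, the cyclin most tied to growth factor signalling and the most abundant member of the family in these cells (chromosome 7, 144929931 to 144939925, minus strand), was lower in both libraries numbered 4. Its level was 11.06, 10.96 and 10.17 log2 CPM in KO (numbers 1, 2, 4) and 10.86, 10.97 and 10.24 in WT. The contrast was -0.84 in KO and -0.67 in WT, against differences between numbers 1 and 2 of -0.10 and 0.11. Number 4 thus held 0.558 times the level of numbers 1 and 2 in KO and 0.628 times in WT.

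Ccnd3 (chromosome 17, 47505051 to 47599691, plus strand) had the largest contrast on the low side. Its level was 6.10, 6.07 and 5.03 log2 CPM in KO (numbers 1, 2, 4) and 6.25, 6.01 and 4.94 in WT. The contrast was -1.05 in KO and -1.19 in WT, so number 4 held 0.482 and 0.439 times the level of numbers 1 and 2. Numbers 1 and 2 differed by -0.03 and -0.24.

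Ccnd2 (chromosome 6, 127125162 to 127152193, minus strand) went the other way. Its level was 7.54, 7.48 and 8.12 log2 CPM in KO (numbers 1, 2, 4) and 7.41, 7.63 and 7.92 in WT. The contrast was 0.61 in KO and 0.40 in WT, larger than the differences between numbers 1 and 2 of -0.06 and 0.22. Per kilobase of exon, Ccnd2 made up 4.11% to 4.63% of the D cyclin total in the libraries numbered 1 and 2, and 10.7% and 8.97% in KO 4 and WT 4. Ccnd1 remained the main D cyclin in every library, at 93.6% to 94.3% in numbers 1 and 2 and at 88% and 89.8% in KO 4 and WT 4.

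The kinases moved little beside the cyclins. Cdk4 (chromosome 10, 127063534 to 127067920, plus strand) was at 8.93, 8.87 and 8.61 log2 CPM in KO (numbers 1, 2, 4) and at 9.08, 8.91 and 8.84 in WT. Both libraries numbered 4 were below all others, by a contrast of -0.29 in KO and -0.16 in WT, where WT 1 and WT 2 themselves differed by -0.17 and leaving out WT 1 gave -0.07. Cdk6 (chromosome 5, 3341485 to 3531008, plus strand) was at 7.30, 7.15 and 7.41 in KO and at 7.02, 7.02 and 7.22 in WT, in the same order of libraries. WT 4 lay below KO 1, so the libraries numbered 4 overlapped the others, with contrasts of 0.19 and 0.20 (0.11 in KO without KO 2). Cdk4 held 90.8% to 94.7% of the summed Cdk4 and Cdk6 level per kilobase of exon in all 6 libraries.

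Cdkn1b was higher in both libraries numbered 4, while Cdkn1a was low in KO 4 alone. Cdkn1b (chromosome 6, 134920401 to 134925513, plus strand) was at 6.40, 6.29 and 6.78 log2 CPM in KO (numbers 1, 2, 4) and at 6.31, 6.35 and 6.99 in WT. Its contrast was 0.44 in KO and 0.65 in WT, where numbers 1 and 2 differed by -0.11 and 0.04. Cdkn1a (chromosome 17, 29090976 to 29100727, plus strand) was at 4.55, 4.37 and 3.67 in KO and at 4.16, 3.97 and 4.08 in WT. KO 4 was the lowest of the 6 libraries, while WT 4 lay between WT 1 and WT 2. The Cdkn1a contrast was -0.78 in KO and 0.02 in WT, and the WT value turned to -0.0047 when each library was centred on its median and to -0.08 without WT 2, with 0.11 without WT 1. The p53 targets Cdkn1a and Gadd45a had contrasts of -0.78 and 4.24 in KO and of 0.02 and 3.61 in WT. Each contrast rests on 1 library numbered 4, and a part of p53 was not tested.

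Myc (chromosome 15, 61985391 to 61990374, plus strand) was higher in both libraries numbered 4, and by nearly the same amount in each genotype. Its level was 8.58, 8.57 and 9.62 log2 CPM in KO (numbers 1, 2, 4) and 8.54, 8.44 and 9.60 in WT. Number 4 was 2.07-fold higher in KO and 2.16-fold higher in WT, with differences between numbers 1 and 2 of -0.0096 and -0.10. In reads, Myc had 16423 and 14481 in KO 4 and WT 4 and 6442 to 7420 in the others.

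**Figure D2:**
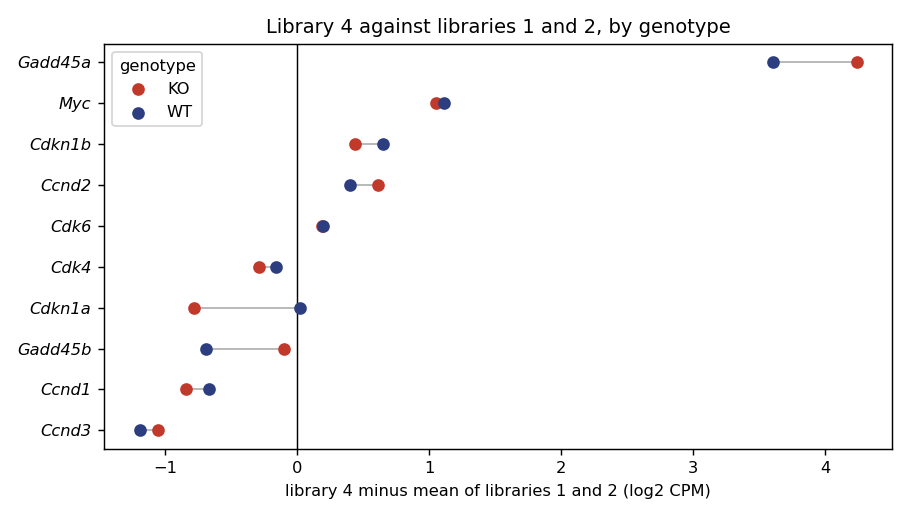
Library 4 minus the mean of libraries 1 and 2 on the log2 CPM scale (horizontal axis), in KO (red) and WT (blue), with genes ordered by the mean of both. Gadd45a stands at 4.24 and 3.61, Ccnd3 at -1.05 and -1.19, and the widest gap between genotypes is that of Cdkn1a.

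Counted together, 4 members had both libraries numbered 4 above all 4 others (Gadd45a, Myc, Cdkn1b and Ccnd2), where 35.8% of all genes tested did. Another 4 had both below all others (Ccnd3, Ccnd1, Gadd45b and Cdk4), where 37% of all genes did, and Cdk6 and Cdkn1a overlapped. For Gadd45b and Cdk4 this holds in the deposited values and depends on their scaling. A contrast of at least 1 in both genotypes was met by 2 members, Gadd45a and Myc (4.98% of all genes), and one of -1 or less by 1 member, Ccnd3 (3.85% of all genes). The median contrast over the 10 members was 0.04 in KO and 0.11 in WT, beside 0.0015 and 9.3e-05 over all genes tested. These counts restate the contrast the genes were chosen on. In bulk RNA, fewer cells expressing a gene and less RNA per cell cannot be told apart.

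The order of levels changed with the library number. Per kilobase of exon, the libraries numbered 1 and 2 had Ccnd1 first (mean 424 CPM per kilobase), then Cdk4 (152), Myc (136) and Gadd45b (51.8). Ccnd2 (19.5) and Cdkn1b (17.8) followed with ranges that overlapped, then Cdk6 (9.99), and last Ccnd3 (7.86), Gadd45a (7.80) and Cdkn1a (5.44), each overlapping the next. In the libraries numbered 4, Myc came first (287), followed by Ccnd1 (251), Cdk4 (131) and Gadd45a (115), with no overlap between these neighbours. Gadd45b (38.5), Ccnd2 (27.7), Cdkn1b (26.0) and Cdk6 (11.4) came next, and Cdkn1a (4.16) and Ccnd3 (3.61) last. Of these, Ccnd2 overlapped Cdkn1b and Cdkn1a overlapped Ccnd3. The lengths are the union of all annotated exons, which can exceed the transcripts these cells make.

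**Figure D3:**
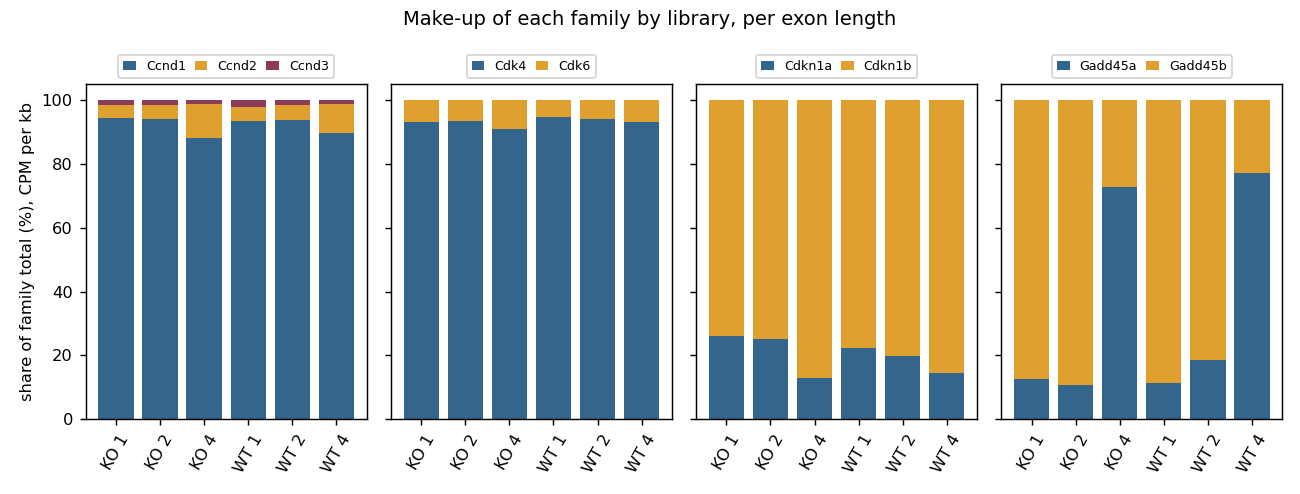
Share of each gene in its family's total CPM per kilobase of exon (vertical axis, percent), 1 bar per library, for the D cyclins, the G1 kinases, the inhibitors and Gadd45a with Gadd45b. Gadd45a takes 72.7% and 77.1% in KO 4 and WT 4 and 10.7% to 18.4% in the other libraries.

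Around these members, 10 lists of pathway genes held 131 further genes that were tested. Both libraries numbered 4 were above all others for 44 of them (33.6%) and below for 66 (50.4%), beside 35.8% and 37% of all genes. The counts given for each list next are to be read beside the same shares, and they set no minimum size of difference. All 12 cycling markers, genes of S phase and mitosis such as Rrm2 (-2.42 averaged over the genotypes) and Mki67 (-0.77), were below. Their summed level was 2744 and 2816 CPM in KO 4 and WT 4, and 5081 to 5182 CPM in the other 4 libraries.

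Downstream of the D cyclins, the cyclin E genes were far lower in the libraries numbered 4. Ccne2 was at 2.41 and 2.11 log2 CPM in KO 4 and WT 4 and at 5.05 to 5.21 in the others, and Ccne1 at 1.73 and 1.63 against 3.95 to 4.16. Their kinase gene Cdk2 had contrasts of -1.10 in KO and -1.15 in WT. Mnat1 and Ccnh, parts of the kinase complex that activates Cdks, were higher, by 0.61 and 0.21 averaged over the genotypes. Cdk7, the kinase of that complex, overlapped, with contrasts of -0.13 in KO and 0.03 in WT. Of 10 genes tested in this list 6 were below and 2 above (37% and 35.8% of all genes). Among 17 genes of the RB and E2F family 10 were below and 4 above: E2f8 (-1.89) and E2f7 (-1.70) were lowest, and Tfdp2 (0.87) and Rb1 (0.79), the retinoblastoma gene itself, highest. Cdkn2a and Cdkn2b, inhibitors of Cdk4 and Cdk6, were not among the measured genes. Cdkn2c and Cdkn2d, inhibitors of the same kinases, were measured, and both libraries numbered 4 were below all others. Their contrasts were -0.76 and -0.66 in KO and -0.45 and -0.69 in WT.

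The genes that degrade G1 regulators were lower more often than higher, with 7 of 13 below and 2 above (37% and 35.8% of all genes). Skp2, which marks Cdkn1b protein for destruction, had contrasts of -1.33 in KO and -1.37 in WT, and Dtl averaged -0.93. Fbxo31 (0.43) and Cul4a (0.08) were the highest of that list. The direction of the Skp2 transcript was opposite to that of the Cdkn1b transcript in both genotypes. Cdkn1b protein was not measured, and a link was not tested.

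Myc's higher transcript level was not matched by its listed targets. Of 20 target genes 0 were above and 17 below, beside 35.8% and 37% of all genes, with a median of -0.62 averaged over the genotypes. The list does not separate Myc from other regulators of those genes. Tfrc, the transferrin receptor, was lowest (-2.42), then Cdc25a (-1.22), while Nop58 (0.07) and Gnl3 (-0.06) overlapped. Among 11 partners in the Myc network, Mxd4 (2.16) and Mxd1 (0.96) were highest, and Mxd3 (-1.63) and Mlx (-0.67) lowest, with 5 above and 2 below. Mxd4, Mxd1 and Mxd3 are all antagonist genes, and of these only Mxd3 was lower. Mnt (0.78), Mxi1 (0.48) and Mga (0.33) were the other genes above.

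The list of stress factors holds regulators linked to Gadd45 genes, such as Atf4, Nfkb1 and Smad3, together with Trib3 and Chac1, which are targets of ATF4 and CHOP. Of its 10 genes 9 were above and 1 below (35.8% and 37% of all genes), with a median of 1.02. Trib3, a pseudokinase induced by ATF4 and CHOP, was at 8.79 and 8.92 log2 CPM in KO 4 and WT 4 and at 3.81 to 5.66 in the others. Ddit3, which encodes CHOP, was at 6.45 and 6.87 against 2.41 to 2.83. Nfkb1 (0.05, yet counted as above) and Brca1 (-1.17) were at the low end. Of 12 FoxO factors and targets 11 were above and 0 below, with a median of 0.53, led by Txnip (2.88) and Pik3ip1 (2.13), while Bcl2l11 (0.29) and Rictor (0.04) were lowest.

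The list of p53 and its targets was evenly split, with 8 of 19 above and 8 below (35.8% and 37% of all genes) and a median of 0.0016. Trp53inp1 (3.34) and Bbc3 (2.93), which encodes the death protein PUMA, were highest, and Aen (-0.66) and Tigar (-0.54) lowest. The Trp53 transcript was at 6.88 and 6.86 log2 CPM in KO 4 and WT 4 and at 5.80 to 5.92 in the others. Of the 8 relatives and partners of Gadd45 genes, Gadd45g (0.45) and Mapk9 (0.22) were highest and Pcna (-1.34) and Cdk1 (-0.83), which Gadd45a protein binds, lowest, with 3 above and 4 below.

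**Figure D4:**
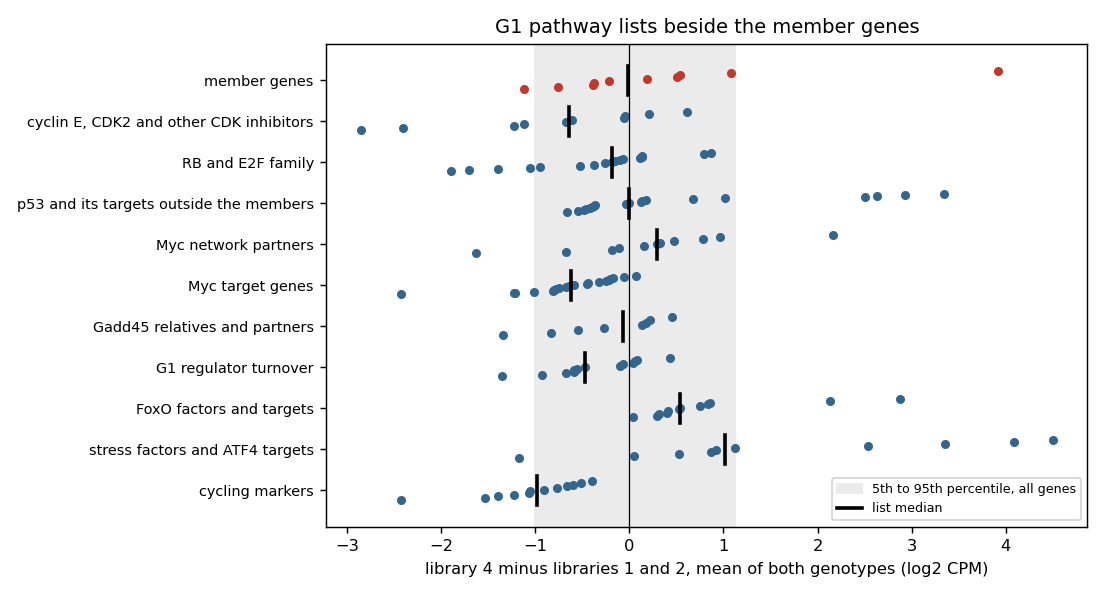
Library 4 minus libraries 1 and 2, averaged over the genotypes, on the log2 CPM scale (horizontal axis), 1 point per gene and 1 row per list, with black bars at list medians and the grey band spanning the 5th to 95th percentile of all genes. The member genes (red) run from -1.12 to 3.92, the stress factors reach 4.50 and every cycling marker lies at -0.40 or lower.

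The genes most like each of 4 members were taken by the smallest root mean square distance between profiles centred on their mean, over the 6 libraries. Nearest to Gadd45a were Trim46 (0.20 log2 units), Kif21b (0.21) and Klhl33 (0.27). These were near the low end of the scale in the libraries numbered 1 and 2, where their contrasts rest on few reads. They lay there at 0.53 to 1.40, 0.05 to 0.98 and -1.55 to 0.17 log2 CPM, and Gadd45a at 3.24 to 4.14. Nearest to Myc were Lemd2 (0.04), Spata7 (0.05) and Klf3 (0.05). Ccnd1 was closest to Wrap53, Odc1 and Tmem199, at 0.03 each, and Cdkn1a to Zscan22 (0.06), Kitl (0.09) and Lmntd2 (0.09).

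The comparison the study was designed for, KO against WT, called none of the members. By limma, no gene of 11269 passed an adjusted p of 0.05 (0%), and 23 had an unadjusted p under 0.05; the adjusted p of all 10 members was 0.9999. This fit keeps the split by library number in its residual spread. With the replicate block, which compares libraries of the same number, 1 gene passed (0.00887%), the glucose-responsive gene Txnip with a difference of -0.96 (SE 0.08, adjusted p = 0.0043, lower in 3 of 3 pairs), and again no member. With the block, 1117 of the 11269 genes had an unadjusted limma p under 0.05. The members' limma adjusted p ran from 0.25 to 0.98.

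Gadd45a had the largest KO minus WT difference of the 10 members, and it was lower in KO at every library number. The differences were -0.62, -0.89 and -0.12 for the numbers 1, 2 and 4, so the KO pools held 0.652, 0.538 and 0.917 times the WT level. The mean difference was -0.55, with an SE of 1.51 without the replicate block and of 0.12 with it (95% interval -0.82 to -0.27, limma adjusted p = 0.25). Leaving out KO 1, KO 2 or WT 4 turned the unblocked mean to 0.10, 0.22 and 0.66, because the remaining libraries then hold the number 4 in unequal shares. Gadd45b differed by -0.76, 0.02 and 0.22, so its lower mean of -0.17 came from the pair numbered 1, and without WT 1 it was 0.13.

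Cdk6 was higher in KO at every number, by 0.28, 0.13 and 0.19, and Cdk4 was lower at every number, by -0.15, -0.04 and -0.22. With the replicate block their mean differences were 0.20 (SE 0.05, limma adjusted p = 0.27) and -0.14 (SE 0.05, limma adjusted p = 0.44). Neither passed the threshold. Myc was higher in KO by 0.04, 0.13 and 0.03. In all, 2 members were lower in 3 of 3 pairs, where 17% of all genes were, and 2 were higher in 3 of 3, where 15.6% of all genes were. No member had its KO libraries wholly above or below its WT libraries, which held for 2.04% and 1.59% of all genes.

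The cyclins and inhibitors changed sign between pairs. Ccnd1 differed by 0.20, -0.02 and -0.08, Ccnd2 by 0.13, -0.15 and 0.21, and Ccnd3 by -0.16, 0.06 and 0.08. Cdkn1b differed by 0.09, -0.06 and -0.20. Cdkn1a was higher in KO by 0.39 and 0.40 in the pairs numbered 1 and 2 and lower by -0.41 in the pair numbered 4. With the block, the 95% intervals of the mean difference were -0.12 to 0.19 for Ccnd1, -0.09 to 0.21 for Ccnd2, -0.15 to 0.14 for Ccnd3, -0.20 to 0.08 for Cdkn1b and -0.20 to 0.46 for Cdkn1a.

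**Figure D5:**
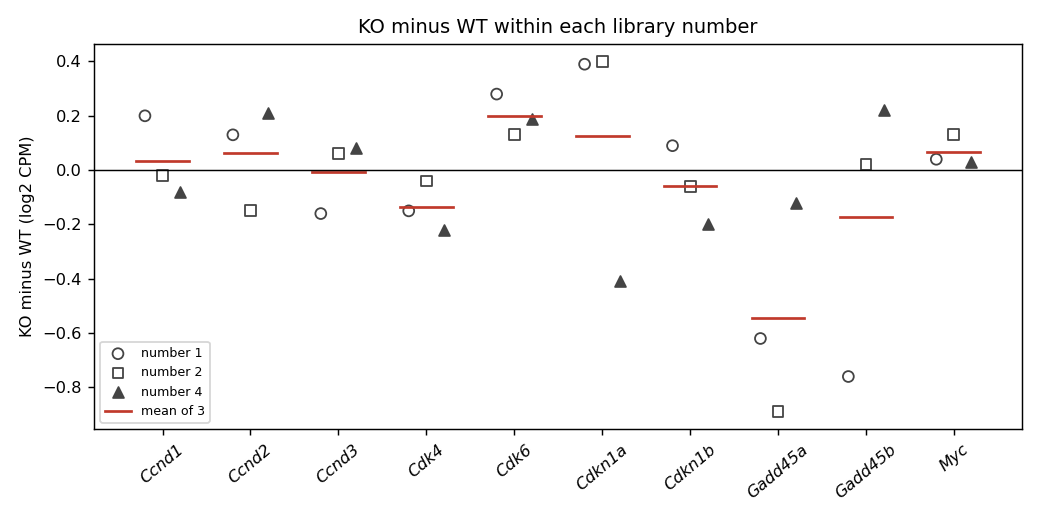
KO minus WT in log2 CPM (vertical axis) for each gene, with a circle, a square and a filled triangle for the library numbers 1, 2 and 4 and a red bar at their mean. Gadd45a is below 0 at all 3 numbers, Cdk6 is above 0 at all 3, and Cdkn1a has its triangle at -0.41 and its other points at 0.39 and 0.40.

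Whether the contrast between number 4 and numbers 1 and 2 was unequal in KO and WT was fitted as an interaction in limma. Each genotype has 1 library numbered 4, so the spread comes from numbers 1 and 2 alone (2 residual degrees of freedom), and the libraries numbered 4 are assumed to vary like them. The members were chosen with the contrast itself in view, so their values here are a description. No gene passed (0%), with 440 at an unadjusted p under 0.05. For Cdkn1a the contrast was lower in KO by a difference of -0.80 (limma adjusted p = 0.9969), and for Gadd45a it was higher in KO by 0.63 (limma adjusted p = 0.9969). Gadd45b had a difference of 0.58. The other 7 members lay between -0.22 and 0.22. Without WT 1, when 145 genes passed, the limma adjusted p was 0.006025 for Cdkn1a (-0.90), 0.00995 for Gadd45a (0.65) and 0.798 for Gadd45b (0.21). Without WT 2, when 269 genes passed, it was 0.0538 for Cdkn1a (-0.71), 0.0183 for Gadd45a (0.61) and 1.39e-08 for Gadd45b (0.96). The fits without WT 1 or WT 2 take the spread from KO 1 and KO 2 alone, so their adjusted p leaves out the spread between WT 1 and WT 2. For Gadd45b, KO 2 differed from KO 1 by 0.03 and WT 2 from WT 1 by -0.75. Over all 10 alternatives the limma adjusted p of these genes reached 1 at the upper end, and with the replicate block it was 0.152 for Cdkn1a, 0.211 for Gadd45a and 0.496 for Gadd45b.

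In the annotation, exons of Gadd45a overlap those of E230016M11Rik on the other strand, and those of Ccnd1, Ccnd3 and Cdk4 overlap LTO1, Bysl and Tspan31. The library kit marks strand, but the sources used here do not give the strand setting of the counting. E230016M11Rik was at 0.91 and 0.53 log2 CPM in KO 4 and WT 4 and at -1.32 to -0.41 in the others, well under Gadd45a. Bysl was also lower in the libraries numbered 4, by -0.78 in KO and -0.69 in WT, while LTO1 differed by -0.14 and -0.10 and Tspan31 by 0.17 and 0.28.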

How the data were processed

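The authors deposited log2 CPM values, 1 column for each of 6 libraries, 3 KO and 3 WT. The submitters' processing notes name the build GRCm38, edgeR, Subread 1.6.4 with featureCounts, STAR 2.7.3a and Trimmomatic 0.39. The sources used here do not give the annotation release, strand setting, scaling or filter. After the lowest linear value was subtracted, 100% of the low values checked in each library were whole multiples of 1 step within 0.01, which gave the reads. A count of 0 reads allows up to 0.144 to 0.173 CPM (3 reads, counting error only). This limit was 0.155 CPM in KO 1 and 0.144 CPM in KO 4, although KO 4 had fewer reads. The values were therefore not scaled by these read totals alone. Small contrasts, such as those of Cdk4 and Cdk6 and of Gadd45b in KO, depend on the scaling. Gadd45b had 1369 of 19560010 reads in KO 4 and 1356 of 19988206 in KO 1, a larger share in KO 4. Cdk4 had 8563 of 17980487 reads in WT 4 and 8938 of 19129743 in WT 2, a larger share in WT 4. By read totals neither gene would have both libraries numbered 4 below all others. Scaling by read totals was not tried for the number-4 contrast.

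Genes reaching a log2 CPM of 0 in 3 or more libraries were kept (11269 of 11452). KO against WT, and the interaction of genotype with number 4, were fitted with limma 3.58.1 in R 4.3.3 with a variance trend, two-sided, with Benjamini-Hochberg adjusted p over all genes. The fits without the replicate block were also run on simulated libraries, with the outcome not reported here. The simulation held no effect shared by libraries numbered 1 or by those numbered 2. It did not cover the fits with the block or with a library left out. An exact permutation test of 3 against 3 cannot give a two-sided p under 0.1. Nothing says how far the pools were separate cultures, so p-values measure the spread between these samples. Deviations of same-numbered libraries correlated at 0.744, 0.784 and 0.921 for the numbers 1, 2 and 4, so the numbers were taken to pair the libraries; no label states this. KO 1 with WT 2 (0.687) and KO 2 with WT 1 (0.617) were nearly as high, since the split by number 4 enters all of these, and the differences of number 2 from number 1 correlated at 0.256 between genotypes. Levels per kilobase use the union of exons in GENCODE M21 (GRCm38).

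The members and lists were chosen with earlier results of these data known. Named genes were all members, the 2 highest and 2 lowest of each pathway list by the number-4 contrast, Trp53 and Cdkn2a, and the 3 nearest profiles of 4 members. Cdkn2b, Cdkn2c, Cdkn2d, Cdk7, Mki67, Cdk2, Mnt, Mxi1, Mga, the genes overlapping members and those of the closing section fall outside this rule. They were picked with their values in view. The alternatives tried were log2(CPM + 1), no filter, a minimum of 1, median centring, no variance trend, the replicate block, limma voom on the reads and leaving out each library. A term for number 4, and the libraries numbered 1 and 2 only, were added after seeing the data.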

Additional observations from a re-analysis of the deposited data

How the results depend on the processing

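The members had 163 reads or more in every library, and how far reads or the spread between 6 libraries limits the differences was not tested. The count of genes called for KO against WT was 0 under every alternative but the replicate block, which gave 1. The interaction called 0 genes, except 16 with the replicate block, and 0 to 269 when 1 of the libraries numbered 1 or 2 was left out (145 without WT 1, 269 without WT 2). It could not be fitted without KO 4 or WT 4. The fits without a library have fewer residual degrees of freedom, and the cause of the other changes was not tested.

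No member passed for KO against WT under any alternative. The direction turned for Ccnd3 with median centring (0.00045, from -0.0047), and in the libraries numbered 1 and 2 only for Ccnd2 (-0.01) and Cdkn1b (0.01). With 1 library left out, the mean differences ranged from -0.19 to 0.32 for Ccnd1, -0.14 to 0.19 for Ccnd2, -0.40 to 0.35 for Ccnd3, -0.05 to 0.39 for Cdkn1a, -0.20 to 0.16 for Cdkn1b, -1.96 to 0.66 for Gadd45a, -0.40 to 0.13 for Gadd45b and -0.28 to 0.44 for Myc. The interaction of Cdk6 ranged from -0.09 to 0.06 with 1 library left out, from -0.01. For the number-4 contrast of Cdkn1a in WT, median centring gave -0.0047 and leaving out WT 2 or WT 1 gave -0.08 and 0.11. The other 19 number-4 contrasts kept their direction in all settings run, which did not include scaling by read totals.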

Other observations

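In the pair numbered 2, several stress genes were lower in KO than in WT. Trib3 differed by -1.61 in that pair and by -0.08 and -0.13 in the pairs numbered 1 and 4. Chac1, a glutathione-degrading enzyme induced by ATF4, differed by -1.47, 0.42 and -0.0058 in the same order. Sesn2, a stress-induced inhibitor of mTORC1 signalling, differed by -1.38, 0.06 and -0.05, and Ddit4, another, by -1.17, -0.41 and -0.03. WT 2 was the highest of the libraries numbered 1 and 2 for each of these genes. Gadd45a also had its widest KO minus WT difference in that pair, -0.89. These genes were picked after their values were seen, and no test was made of them.

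Of the 12 FoxO factors and targets, 3 were lower and 2 higher in KO in all 3 pairs, where 17% and 15.6% of all genes were. Besides Txnip, the FoxO target Ccng2, a cyclin G gene tied to arrest, was lower in KO in all 3 pairs, by -0.50, -0.46 and -0.35. Pik3ip1, an inhibitor of PI3 kinase, was lower by -1.01, -0.50 and -0.17. The 2 higher genes were Bcl6, by 0.06, 0.19 and 0.25, and Rictor, by 0.17, 0.03 and 0.17. Other lists lay further from the shares of all genes. Of the 13 genes that degrade G1 regulators, 6 were lower and 0 higher in all 3 pairs. Of the 7 mitochondrial genes, 0 were lower and 7 higher. None of these counts was tested.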
